A study of Rattus norvegicus with 3 samples.

Results

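The neuropeptide precursors Cck, Vip, Npy, Sst, Tac1, Pdyn and Penk were examined in 3 single cell bodies of cultured rat hippocampal neurons. A probe set was taken where the platform annotation gives it 1 of these 7 symbols and no other, which left 8 of 31099 probe sets and 7 of 14218 genes. Pdyn had 2 probe sets and each other gene had 1. Each array carried amplified RNA of a single soma, taken with a glass pipette from a neuron of a Sprague-Dawley rat. The study describes the neurons it collected as pyramidal. The neurons came from embryos of day 19 and had spent 14 days in dispersed culture. No treatment or genetic change was applied, so the arrays form 1 group of 3, called cells 1, 2 and 3 after the replicate number of the labels. The labels name neither the animal nor the dish of each soma. The spread between cells therefore holds biological and technical parts together. With 1 array per cell no difference between cells could be tested, and an exact sign-flip test of a pair of peptides over 3 cells cannot give a p below 0.25, so none is given.

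Neuropeptides are made as long precursor proteins, cut by proteases in dense-core vesicles and released to act on G protein-coupled receptors. In the hippocampus Cck (cholecystokinin) marks a class of basket cells and is also made by many pyramidal cells. Vip (vasoactive intestinal peptide), Npy (neuropeptide Y) and Sst (somatostatin) are classical products of GABAergic interneurons. Tac1 encodes substance P and neurokinin A, Pdyn encodes the dynorphins, which granule cells of the dentate gyrus release, and Penk encodes the enkephalins.

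Several peptide genes respond to cyclic AMP through the factor CREB, whose textbook site is TGACGTCA with TGACG as its core. Both were searched on either strand in the RefSeq windows of build GRCr8 that reach from 250 bases before to 50 bases after the start of each gene. The table held 5 of the 7 members, all but Cck and Penk. Of its 33469 windows 21.2% held TGACG or its reverse complement CGTCA, and 1.83% held the full TGACGTCA, which contains both. The stretches of members with a match are shown because they are a feature that the choice of genes did not use, with the matching bases in capitals. They lie on the plus strand at chr1:44470372-44470398 for Vip, chr11:90461537-90461566 for Sst and chr4:36645366-36645392 for Tac1.
Vip: gatcaccactgTGACGtctttcgagga
Sst: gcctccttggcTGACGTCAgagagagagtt
Tac1: ccctaaaattgCGTCAtttcgaaccca

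Positions count from the annotated start, with negative numbers before it. The match in Vip began at position -97, that in Tac1 at position -206, and that in Sst at base 3 after the start. The windows of Npy and Pdyn held neither motif. Of the members with a match, Vip passed background in cell 2 and Tac1 and Sst passed it in no cell, as given below. A match describes letters in this window and was not tested as a binding site.

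The arrays were alike in their overall scale, with median log2 values of 7.23, 7.16 and 7.09 in cells 1, 2 and 3. Since no detection calls were used, background was set by 114 genes taken as silent in neurons, namely 29 chemoreceptor genes and 85 genes of organs such as pancreas, liver and mammary gland. The background of an array was the 95th percentile of these genes, and a reading higher than it is called above background. It lay at 9.24, 10.11 and 9.47. Of all genes, 10.5%, 5.23% and 10.5% were above it on the arrays of cells 1, 2 and 3. Background was thus highest, and the share of genes above it lowest, in cell 2. In RNA measures it was cell 1 that stood apart. The 3' probe set of Gapdh there read above the 5' one by 0.20 log2, against 3.06 in cell 2 and 2.93 in cell 3. Levels are given as deposited log2 values and as percentiles among all genes of the array. Probe affinity enters both beside RNA amount, and so an order of different peptides is an order of readings and not of transcript abundance. In single somata less RNA in a cell and poorer recovery of it cannot be told apart.

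Cck and Penk gave the highest readings of the 7 peptides and Npy and Sst the lowest. Of the 21 readings, 4 were above background. These were Cck and Penk in cell 1 and Cck and Vip in cell 2. No member passed in cell 3, and Npy, Sst, Tac1 and Pdyn passed in none of the cells. The counts of 2, 2 and 0 of 7 members stand beside the shares of 10.5%, 5.23% and 10.5% for all genes. Members passing in at least 1 cell numbered 3 under every other background tried. Penk in cell 2 passed when their 90th percentile was used, or with the chemoreceptor genes alone.

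**Figure D1:**
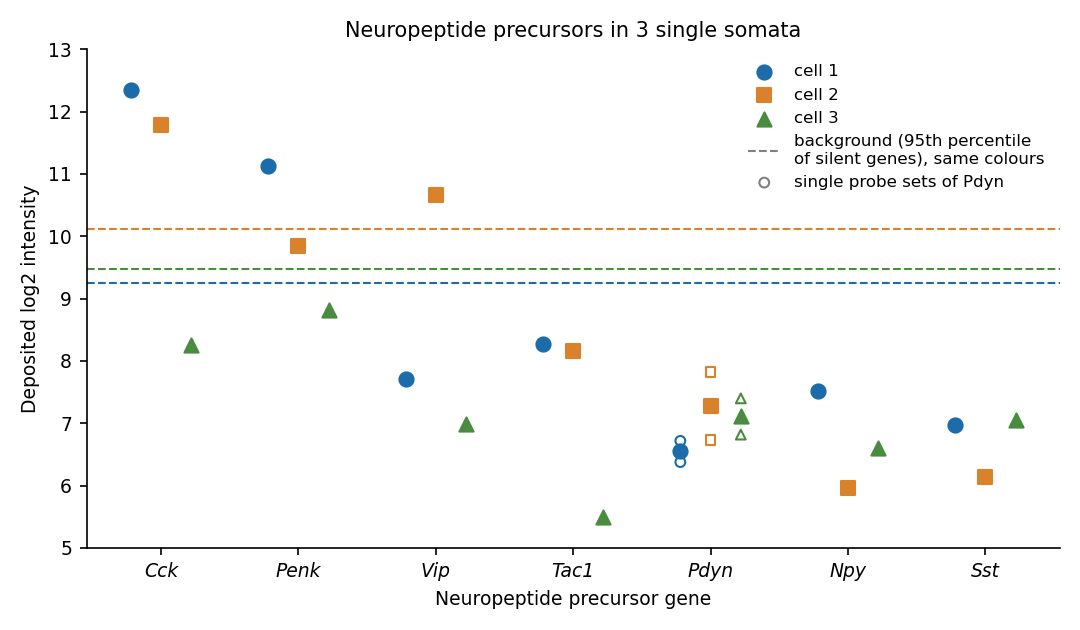
Deposited log2 intensity (vertical axis) of each precursor gene (horizontal axis) with circles for cell 1, squares for cell 2 and triangles for cell 3, dashed lines at the background of each array in the same colours and small open symbols for the single probe sets of Pdyn. Cck and Penk lie above the line of cell 1, Cck and Vip above that of cell 2, and no triangle lies above the line of cell 3.

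Cck read 12.35 log2 in cell 1, 11.79 in cell 2 and 8.26 in cell 3. It was among the brightest genes of cells 1 and 2, at percentiles of 99.8 and 99.4, and at 74.7 in cell 3. Relative to background it lay 3.11 log2 above in cell 1 and 1.68 above in cell 2, and at -1.20 in cell 3. Cck thus passed background in cells 1 and 2 and not in cell 3. After quantile normalisation, which gives the 3 arrays the same distribution, the difference in reading was -4.32 log2 for cell 3 minus cell 1 and -3.60 log2 for cell 3 minus cell 2. The difference between cells 1 and 2 was 0.72 log2. No fold is given here or for the other members where a reading was under background, since such a reading may not follow the amount of RNA.

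Penk read 11.13 log2 in cell 1, 9.85 in cell 2 and 8.81 in cell 3. It was the peptide with the steadiest high percentile, at 98.5, 93.4 and 83.2, or 91.7 ± 7.77 (SD, n = 3 cells). After normalisation the reading differed by -2.47 log2 for cell 3 minus cell 1 and by -1.31 log2 for cell 2 minus cell 1, with cells 2 and 3 under background. Its value in cell 2 lay 0.27 log2 under the background of that array, the member reading nearest to the limit.

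Vip read 7.71 log2 in cell 1, 10.66 in cell 2 and 6.99 in cell 3. Cell 2 stood alone, with Vip at a percentile of 97.0 and 0.55 log2 above background, against percentiles of 62.7 and 44.8 in cells 1 and 3. The normalised reading of cell 2 exceeded that of cell 1 by 3.03 log2, and cell 3 minus cell 2 was -3.69 log2. Vip was under background in cells 1 and 3, which differed by 0.66 log2. Its readings rest on 1 probe set, built on an expressed sequence tag.

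Tac1 read 8.27 log2 in cell 1, 8.15 in cell 2 and 5.50 in cell 3. All 3 values were under background, and cells 1 and 2 differed by 0.16 log2. Cell 3 gave the lowest reading, at a percentile of 12.1 against 75.6 and 72.6, and as no cell passed background the order of these readings is not reliable. The single probe set of Tac1 carries the suffix _a_at, which marks probes that can match several transcripts, so this gene drops out where such probe sets are left out.

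Npy read 7.51, 5.95 and 6.60 log2 in cells 1, 2 and 3, at percentiles of 57.3, 18.4 and 34.7. Sst read 6.98, 6.14 and 7.05 log2, at percentiles of 41.7, 22.2 and 46.3. Both interneuron peptides read lowest in cell 2, at -4.16 log2 from background for Npy and -3.98 for Sst. As neither passed in any cell, the order of these readings is not reliable. Npy differed by 1.53 log2 between cells 1 and 2, and every difference of Sst was under 1 log2. The readings nearest to background were those of cell 1, at -1.73 log2 from it for Npy and -2.27 for Sst.

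Pdyn read 6.55, 7.28 and 7.11 log2 as the median of its probe sets. The probe set built on the RefSeq transcript gave 6.72, 6.73 and 6.82, and the one built on an expressed sequence tag gave 6.38, 7.82 and 7.40. The former hardly varied between cells, with a range of 0.10 log2, and the latter varied by 1.45. With the brighter probe set alone cell 2 exceeded cell 1 by 1.51 log2, against 0.82 for the median, so the probe set decides whether Pdyn differs by more than 1 log2.

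The order of the readings changed from cell to cell. Cck came first in cells 1 and 2 and Penk in cell 3, while Pdyn was last in cell 1, Npy in cell 2 and Tac1 in cell 3. Readings under background have no reliable order, and in cell 3 this holds for every member, so the orders that follow describe readings only. Of the 21 pairs of peptides 10 read in the same order in all 3 cells. These were Cck above Vip, Npy, Sst, Tac1 and Pdyn, Penk above Npy, Sst, Tac1 and Pdyn, and Vip above Npy. The share of all gene pairs with a fixed order was not computed, so the count does not show a stable ranking of peptides. By mean percentile the order was Penk at 91.7, Cck at 91.3, Vip at 68.2, Tac1 at 53.4, Pdyn at 42.8, Npy at 36.8 and Sst at 36.7. Among neighbours in this order, Cck and Vip were the pair whose difference (23.1 ± 18.3 percentile points, SD, n = 3 cells) exceeded its spread. The other 5 neighbouring pairs did not differ beyond theirs.

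Differences between the somata were counted where 2 cells differed by at least 1 log2 after quantile normalisation. Npy in cells 1 and 2 and Tac1 in all cells were under background on both sides of each difference counted here, as was Penk between cells 2 and 3. Between cells 1 and 2, Npy and Penk were higher in cell 1, a direction shared by 22.5% of all genes, and Vip was higher in cell 2, as were 24% of all genes. Between cells 1 and 3, Cck, Tac1 and Penk were higher in cell 1 (3 of 7 members, 22.7% of all genes) and no member was higher in cell 3 (26.9% of all genes). Between cells 2 and 3, Cck, Vip, Tac1 and Penk were higher in cell 2 (4 of 7 members, 17.4% of all genes) and again none in cell 3 (18.8% of all genes). The median difference of the 7 members was -0.82 log2 for cell 3 minus cell 1 and -1.16 for cell 3 minus cell 2, where that of all genes was 0.21 and 0.05. For cell 2 minus cell 1 these medians were -0.72 and 0.10.

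**Figure D2:**
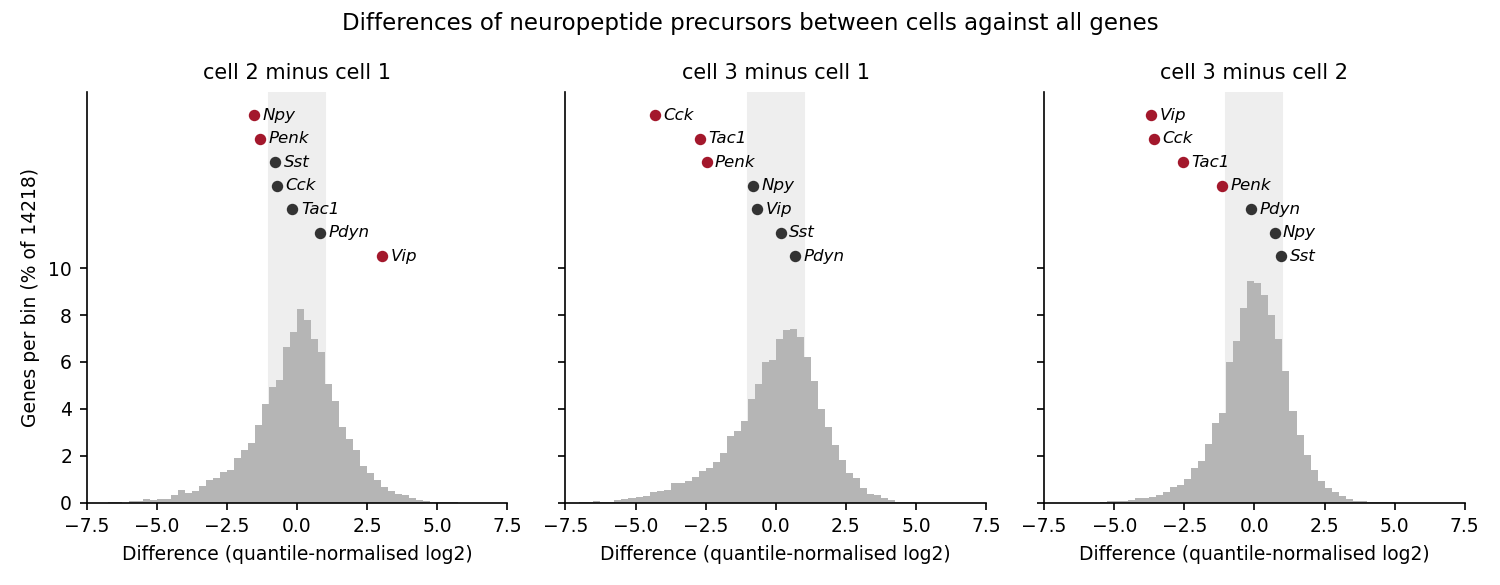
Difference in quantile-normalised log2 level between 2 cells (horizontal axis) for all 14218 genes as a grey histogram in percent per bin (vertical axis), with the 7 precursors as named points placed above it at arbitrary heights, red where they differ by at least 1 log2 and black inside the shaded band. In both panels with cell 3 every red point lies to the left, from -1.16 to -4.32, and Vip lies at 3.03 for cell 2 minus cell 1.

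Cck, Vip, Tac1 and Penk read lowest in cell 3, 4 of 7 members against 28.7% of all genes, and Cck, Npy, Tac1 and Penk were highest in cell 1, again 4 of 7 against 32.5%. Sst was highest in cell 3, and Vip and Pdyn were highest in cell 2. Cck, Tac1 and Penk shared the pattern of being highest in cell 1 and lowest in cell 3 with a range of at least 2 log2, which 7.29% of all genes also showed. Cells 1 and 2 differed by under 1 log2 for Cck and Tac1 and by -1.31 log2 (cell 2 minus cell 1) for Penk.

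The members differed widely in how much they varied. The SD over the 3 cells, on the quantile-normalised log2 scale, was 2.31 for Cck, 1.97 for Vip, 1.51 for Tac1 and 1.23 for Penk, against 0.77 for Npy, 0.51 for Sst and 0.44 for Pdyn. The median gene had an SD of 0.77. The SD of Cck was at percentile 97.4 of all genes and that of Vip at 94.4, while Sst and Pdyn were at 28.0 and 21.8. The spread of Cck, Tac1, Vip, Sst and Pdyn rested on 1 cell each, since the SD was 0.49 for Cck and 0.11 for Tac1 without cell 3, 0.46 for Vip and 0.12 for Sst without cell 2, and 0.09 for Pdyn without cell 1. No single cell carried that of Penk, at 0.84, 1.76 and 0.94 without cells 1, 2 and 3, or of Npy, at 0.51, 0.58 and 1.06. Npy, Sst and Pdyn, which varied least, were under background in every cell, and so was Tac1.

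Cck joined a high mean with a wide spread. After quantile normalisation 1 other gene, Zc3h18, had both a mean and an SD at least as high as Cck, and the number of such genes was 1 under the 3 scalings tried. Zc3h18 ran otherwise than Cck, at 7.86, 13.33 and 12.87 log2, with cell 1 as the low cell. For Penk 77 other genes and for Vip 139 did so. This comparison was chosen after the values were seen.

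**Figure D3:**
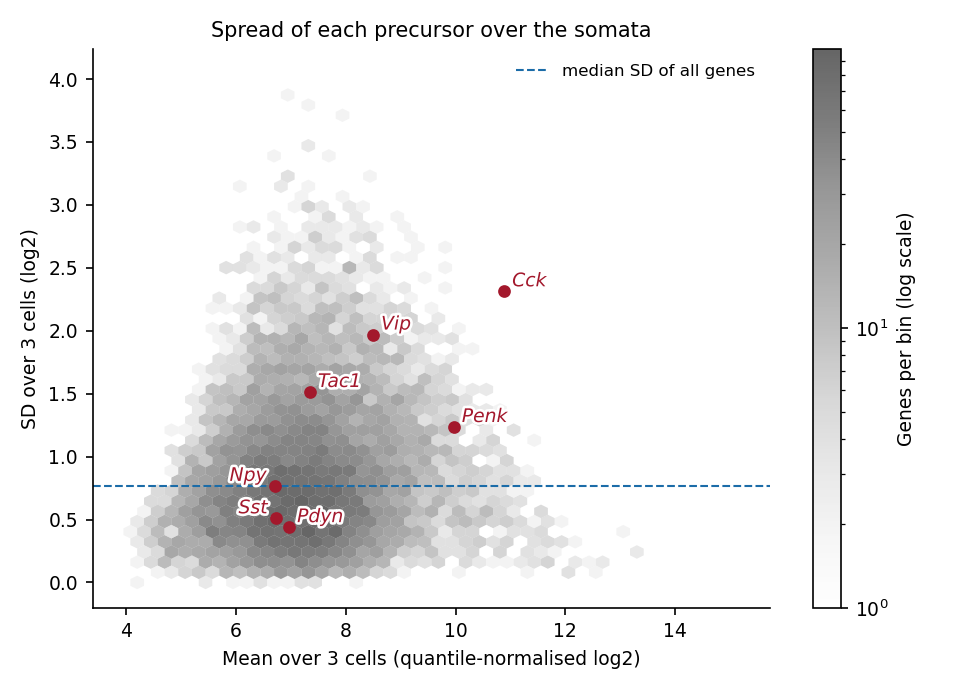
SD over the 3 cells (vertical axis, log2) against the mean over the cells (horizontal axis, quantile-normalised log2) for all genes as grey bins, with the 7 precursors in red and the median SD of all genes as a dashed line. Cck, at a mean of 10.88 and an SD of 2.31, lies outside the bulk of the genes, and Npy, Sst and Pdyn lie within its dense lower part.

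Genes whose readings over the 3 cells came nearest to Cck were Ccdc106, Itgbl1 and Crybb1, at distances of 0.97, 0.99 and 1.15 log2 in 3 dimensions. For Vip they were Gins4, Abca4 and Flvcr1, at 0.38, 0.46 and 0.63 log2, and 33 genes lay within 1 log2 of it against 2 for Cck. No other peptide precursor was among them. With 3 cells such likeness is a description only.

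Other neuropeptide precursors were set beside the members. Of 31 measured, 5, 3 and 3 were above background in cells 1, 2 and 3 (10.5%, 5.23% and 10.5% of all genes). Pmch, the precursor of melanin-concentrating hormone of the hypothalamus, read 10.36, 11.17 and 11.34 log2, and Uts2 (urotensin II) read 10.55, 11.40 and 11.49. Both passed in every cell, as did 2.40% of all genes and no member. Each is read by 1 probe set. Of the 85 organ genes taken as silent, 4 passed in 2 or more cells, so a pass alone does not establish expression. Grp (gastrin-releasing peptide) at percentiles of 7.0, 2.6 and 3.5 and Npw (neuropeptide W) at 20.2, 25.7 and 3.8 were at the lower end. Passing in 1 cell were Adcyap1 (the peptide PACAP), Calcb and Oxt (oxytocin) in cell 1, Pnoc (nociceptin) in cell 2 and Npvf in cell 3, named after their values were seen. Adcyap1 read 10.30, 8.86 and 7.71 log2, highest in cell 1 and lowest in cell 3 like Cck, Tac1 and Penk. It was under background in cells 2 and 3. Oxt, Gnrh1, Sct, Trh and Nppc read in the same order, which 16.8% of all genes showed. Over the whole list 13 genes read highest in cell 1, 11 in cell 2 and 7 in cell 3 (32.5%, 31.2% and 36.2% of all genes), and 12, 9 and 10 read lowest there (41.6%, 29.8% and 28.7% of all genes). The median percentile of the list was 50.1 in cell 1 and 58.7 in cell 3, with cell 2 near cell 1.

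Genes that cut, trim and amidate the precursors were read unevenly. Cpe, the carboxypeptidase that trims basic residues from peptide ends, read 10.88, 11.74 and 13.26 log2 and was above background in every cell. It was highest in cell 3, where Cck, Vip, Tac1 and Penk read lowest, all of them under background there. Tac1 passed in no cell, so the order of its readings is not reliable. Scg5, the chaperone of the convertase PC2, read 9.83, 9.97 and 10.92 log2 and passed in cells 1 and 3. The convertase gene Pcsk2 itself read 7.86, 6.25 and 9.16 log2, under background in each cell. In all 2, 1 and 2 of 14 measured genes passed (10.5%, 5.23% and 10.5% of all genes). Pcsk5 and the amidating enzyme Pam were at the lower end by their median probe set, yet the 3 probe sets of Pam disagreed. The brightest gave 10.11, 10.06 and 11.32 log2 and the others stayed between 4.58 and 5.87.

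Dense-core vesicle genes stood higher than the peptides in cells 2 and 3. Their median percentile was 62.7, 81.3 and 73.1 over 13 genes, against 62.7, 72.6 and 46.3 over the 7 members. Of the 13 genes 2, 2 and 4 were above background (10.5%, 5.23% and 10.5% of all genes). Scg2 (secretogranin II) read 9.62, 10.86 and 11.39 log2 and passed in every cell. Ptprn2, a receptor-like phosphatase of the vesicle membrane, read 8.59, 11.07 and 10.99, and Cadps, which primes these vesicles for release, read 9.66, 8.96 and 10.06. Chga (chromogranin A) at 7.07, 5.52 and 7.09 log2 and Sytl4 at 5.87, 7.39 and 7.63 were lowest. None of the 13 genes read lowest in cell 3 (28.7% of all genes) and 9 read lowest in cell 1 (41.6% of all genes). Of the 7 peptides 4 and 1 did, and all 7 were under background in cell 3.

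Receptors of the 7 peptides were near the middle of the array, with median percentiles of 47.4, 51.3 and 49.3 over 19 genes. In cell 1 Npy4r, Sstr1 and Tacr2 were above background, and no receptor passed in cells 2 or 3. Of all genes 10.5%, 5.23% and 10.5% passed in cells 1, 2 and 3. Tacr2, a tachykinin receptor that binds neurokinin A, read 10.04, 9.01 and 4.86 log2 and was under background in cells 2 and 3. The other tachykinin receptors, Tacr1 at 7.77, 7.76 and 7.87 log2 and Tacr3 at 6.14, 5.83 and 4.86, passed in no cell. These receptors were picked for description after their values were seen. Npy2r, at percentiles of 15.9, 2.2 and 3.5, and Sstr3, at 11.3, 11.3 and 16.4, read lowest.

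Among CREB and its partners 2, 1 and 3 of 15 genes passed background (10.5%, 5.23% and 10.5% of all genes). Kcnip3, a calcium sensor also known as DREAM that represses Pdyn transcription, read 10.89, 10.83 and 10.50 log2 and passed in every cell. Its probe sets disagreed, with 1 at 15.11, 14.99 and 14.99 log2 and the other at 6.67, 6.68 and 6.00. Creb1 read 6.00, 5.46 and 5.45 log2 and Atf1 6.31, 7.95 and 5.42, the lowest of the list by mean percentile. Creb1 is a median of 4 probe sets that disagreed, with 1 at 9.98, 6.02 and 5.93 log2, above background in cell 1, another at 7.31, 9.58 and 6.73, and the others at most 4.98. Atf2 passed in cell 1, and Atf4 and Nfya passed in cell 3.

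**Figure D4:**
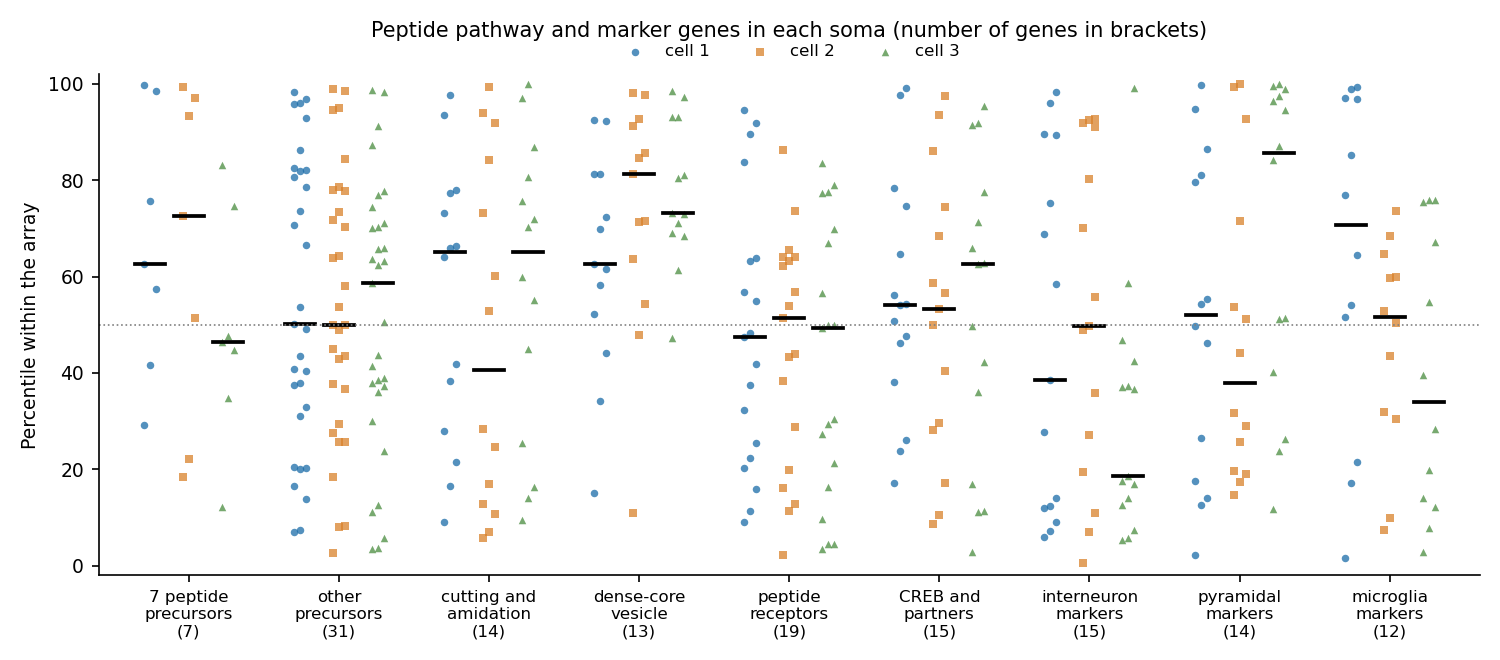
Percentile within the array (vertical axis) of the genes of each list (horizontal axis, number of genes in brackets) in cells 1, 2 and 3, with 1 symbol per gene, black bars for the medians and the 50th percentile dotted. The median of the 7 precursors is 46.3 in cell 3, where that of the pyramidal markers is 85.7 and that of the interneuron markers 18.6.

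Of 14 markers of pyramidal neurons 2 were above background in every cell and 8 in none (2.40% and 81.8% of all genes). The former were Neurod2, which drives differentiation of excitatory neurons, and Nrgn, a calmodulin-binding protein of spines, at 12.88, 13.40 and 13.35 log2 and 10.10, 11.77 and 11.58 log2. By cell 2, 2 and 6 of 14 pyramidal markers were above background (10.5%, 5.23% and 10.5% of all genes). Their median percentile was 52.1, 37.9 and 85.7. Tbr1, at percentiles of 2.1, 14.6 and 23.9, and Mef2c, at 12.6, 19.1 and 11.8, read lowest. The vesicular glutamate transporter Slc17a7, at 7.43, 7.27 and 7.23 log2, and Camk2a and Emx1 were under background in each cell too. Slc17a6, the other such transporter of the list, read 5.83, 6.44 and 10.35 log2 and passed in cell 3 alone. Neurod6, Bhlhe22 and Nptx1 also passed in cell 3 alone.

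Interneuron markers were mostly under background in these cells, and none of them passed in cell 2, where Vip passed. Of 15 such markers 2, 0 and 1 were above background (10.5%, 5.23% and 10.5% of all genes). Their median percentile was 38.5, 49.7 and 18.6, and their summed linear level was 12.53, 12.19 and 12.16 log2. The GABA-synthesising enzymes Gad1 (7.56, 8.55 and 4.94 log2) and Gad2 (5.83, 4.30 and 5.16 log2) and the GABA vesicle transporter Slc32a1 (6.49, 7.44 and 5.61 log2) were under background in every cell. Of the list 4, 7 and 4 genes read highest in cells 1, 2 and 3 (32.5%, 31.2% and 36.2% of all genes). Lowest there were 3, 4 and 8 (41.6%, 29.8% and 28.7% of all genes). Most of these readings were under background, where the order is not reliable. Calb2 (calretinin), which many Vip interneurons contain, read 11.06, 9.51 and 11.76 log2. It passed in cells 1 and 3 and was under background in cell 2. The developmental factor Nkx2-1 passed in cell 1 alone, and Dlx5 was at the lower end of the list. Whether RNA of an interneuron had a part in the reading of Vip or Cck was not tested.

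Microglia, astrocyte and oligodendrocyte markers passed background most often in cell 1, where Cck and Penk read highest, and endothelial markers did not. Above background in cells 1, 2 and 3 were 4, 0 and 0 of 12 microglia markers and 2, 0 and 0 of 11 astrocyte markers. The counts were 3, 1 and 0 of 11 oligodendrocyte markers and 1, 2 and 2 of 9 endothelial markers. Of all genes 10.5%, 5.23% and 10.5% were above background. The summed linear level of the microglia list was 13.36, 10.86 and 10.79 log2 in cells 1, 2 and 3, and that of the astrocyte list 12.14, 10.48 and 10.48. The astrocyte median percentile was 28.2, 33.2 and 28.4, that of microglia 70.8, 51.6 and 33.9, and that of oligodendrocytes 72.0, 63.0 and 54.7. Of the astrocyte markers 6 of 11 read lowest in cell 1, as did 5 of 11 oligodendrocyte and 4 of 12 microglia markers. The share of all genes lowest in cell 1 was 41.6%. For the oligodendrocyte list the summed level was 12.13, 11.84 and 10.78, and for the endothelial list 12.85, 13.36 and 13.20, led by Vwf and Esam. Aif1 and C1qa among the microglia genes, Gjb6 and Aldh1l1 among those of astrocytes, Cnp and Cspg4 of the oligodendrocyte lineage and Flt1 and Cldn5 of endothelium had the lowest mean percentiles of their lists. Cnp is a median of disagreeing probe sets, 1 at 11.24, 6.19 and 7.13 log2, above background in cell 1, and the other at 4.93, 5.03 and 6.49. The part of other cells in the levels of Cck, Penk and Tac1 in cell 1 was not tested.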

How the data were processed

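The authors deposited 1 log2 value per probe set of an Affymetrix rat expression array for each of 3 somata, and the labels name RMA 2.0. The study's methods state an upper-decile summary of probe intensities, then median centring and scaling by the 10th to 90th percentile range, for dendrite and tissue arrays. The deposited log2 values showed no such centring. Per the labels, RNA was amplified in repeated rounds, the last for 14 h, and 5 µg were labelled. No genome build was named. The number of arrays limits the precision.

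A gene's value was the median over its probe sets with 1 symbol (20832 probe sets, with 436 of several symbols and 9831 unnamed or control ones left out). Platform symbols can be old, and all 7 members kept theirs in the RefSeq table of GRCr8. Percentiles used mean ranks for ties. Differences and SDs used quantile-normalised values (Python 3.11.15, pandas 2.3.3, numpy 2.4.6). Steps were tested on simulated data.

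The members and gene lists were chosen with earlier results of these data known. Named were all members, list genes above background in at least 2 cells, the 2 of lowest mean percentile per list, and the 3 genes nearest to the 2 members of widest range. Other genes were named after their values were seen. Alternatives covered the summary and choice of probe sets, scaling, background, size of difference and leaving out each cell.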

Additional observations from a re-analysis of the deposited data

How the results depend on the processing

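Every difference of at least 1 log2 kept its direction under every alternative that could be computed. This had little room to fail and gives no support. The genes concerned have 1 probe set each, and the alternatives rescaled or removed the same readings. With a limit of 2 log2 in place of 1, the number of members that differed between cells 1 and 2 was 1 in place of 3. The median SD of the members over the cells, 1.23 log2, was 1.00 without probe sets that can match several transcripts, where Tac1 drops out, and between 0.56 and 0.84 without 1 cell. The number of genes of the 5 pathway lists above background in at least 1 cell, 20 of 92, was 10 with the 95th percentile of all genes as background, and between 13 and 19 without 1 cell, the 13 being without cell 1. It was 29 with the brightest probe set of each gene and 26 with the 90th percentile of the silent genes. Among them the CREB list, 4 of 15, had 9 with the brightest probe set and 2 with the organ genes alone, with the 95th percentile of all genes or without cell 3. The mean over cells of the median percentile of the members, 60.5, was between 54.5 and 67.6 without 1 cell, and 53.2 with the brightest probe set of each gene. Members above background in at least 1 cell numbered 2 without cell 1, when Penk no longer passed, and 2 without cell 2, when Vip did not. A count of 3 cells, each read once and mostly by 1 probe set per gene, leaves no estimate of technical error, and readings under background have no reliable order. No paired analysis was possible because the series holds 1 group.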
